A study of Mus musculus with 2 samples.

Results

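The transcripts of 10 genes of lysosomal proteolysis were followed across the immune cells of a mouse melanoma. They are the cysteine cathepsins Ctsb, Ctsc, Ctsh, Ctsk, Ctsl, Ctss and Ctsz, the aspartic protease cathepsin D (Ctsd), the asparaginyl endopeptidase legumain (Lgmn) and the cysteine protease inhibitor cystatin C (Cst3). The genes were chosen by symbol from the 31253 genes of the count matrices, and all 10 were found in both libraries. Together they held 657060 of 42105693 unique molecular identifiers (UMIs), or 1.56%, in the library labelled Irg1+/+ and 513231 of 35307041, or 1.45%, in the library labelled Irg1-/-.

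The cells were Cd45+ cells sorted on day 10 from tumors that grew after subcutaneous injection of 200000 cells of the mouse melanoma line B16-F10. The library labelled Irg1+/+ came from mice with intact Irg1 and the library labelled Irg1-/- from mice with a whole-body knockout of Irg1 (Acod1), the enzyme that makes itaconate, on a C57BL/6J background. The mice were young adult females, and no other allele and no treatment is named for either group. Tissue from 3 mice of one genotype was pooled into 1 library, so that no test between genotypes was possible, and the genotype cannot be told apart from anything else that differed between the pools. Values are therefore given for each library as UMIs per 1000000 UMIs (CPM) of the summed cells of a class, with exact 95% intervals (Poisson for levels, conditional binomial for ratios) that cover counting error only. A UMI counts a molecule once, so levels of different genes were compared without a correction for length.

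Of 6408 and 5896 cells in the matrices, 6284 and 5794 had under 10% mitochondrial UMIs and over 200 genes, with medians of 4528 and 4594.5 UMIs per cell. In each pair of values the library labelled Irg1+/+ comes first. Counts of genes past 1.5-fold between classes take genes with at least 100 UMIs over both classes in each library. Ctsk did not reach this in 11 of 15 comparisons and is not counted in those. Acod1 itself had 3696 UMIs (87.8 CPM, interval 85.0 to 90.7) and 3805 UMIs (108 CPM, 104 to 111), so that it was not lower in the library labelled Irg1-/-. Tags at the end of a transcript do not show whether an upstream exon is missing, and this count is no check of the knockout. The libraries shared 36 cell barcodes.

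Lysosomal proteases degrade endocytosed and autophagocytosed protein at acid pH. In antigen-presenting cells cathepsin S is known for trimming the invariant chain of MHC class II, legumain for opening some antigens and activating other cathepsins by cleavage after asparagine, and cathepsin C for activating the granule serine proteases of leukocytes. Cystatin C is a secreted tight inhibitor of the cysteine cathepsins, whereas the aspartic protease cathepsin D is outside its reach.

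Cells were assigned to classes by a per-cell score over marker genes, none of which is a member of the gene set, and classes are written as "like". The monocyte-like cells numbered 815 and 965, macrophage-like cells 842 and 709, dendritic cell (DC)-like cells 901 and 881, plasmacytoid DC (pDC)-like cells 69 and 62, and lymphocyte-like cells (T, NK and B) 1787 and 1512. All 10 macrophage markers were highest in one of the macrophage-like states described below. All 8 mature DC markers and all 7 pDC markers were highest in their own class, as were 8 of 9 for cDC1, 6 of 7 for T cells and 7 of 7 for NK cells. Cells were assigned by these same markers, so such counts describe the gates and are no separate check of them. The weakest gates were cDC2, with 2 of 6 markers highest in its own class, and classical and nonclassical monocytes, each with 5 of 8. No class took 1633 and 1314 cells (26.0% and 22.7%), which had medians of 1995 and 2411 UMIs, and 573 of these had a score over the minimum but too small a margin over the next class. No doublet caller was run. Possible doublets (1432 and 1389 cells in the top 5% by UMIs of their library or over the minimum for 2 or more lineages) were kept, and were left out as an alternative.

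Macrophage-like cells were divided further by state markers: Vegfa (with Nos2 and Slc2a1), MHC-II (H2-Aa, Cd74), Mrc1 (with Gatm, Ccl8), Lyve1 (with Cd163, Folr2), Ccl24 (with Mgl2, Fn1) and cycling (Mki67, Top2a), with the rest called unassigned. The smallest, the Lyve1 state, had 29 and 42 cells, and 203 and 196 macrophage-like cells lay near the state threshold. The leading genes of the MHC-II state by fold were Gbp2b, C1qa and Mertk, with none of its own state markers among the first 10, so its name rests on marker levels. Mrc1 itself was among the first 10 genes of the Ccl24 state but not of the Mrc1 state, where Ccl8 was the only state marker. Of the 6 Mrc1 state markers, 5 were highest in that state. Their summed level over both libraries was 8141 CPM there, against 6528 CPM in the Lyve1 state. The Vegfa state was 20.7% and 14.7% of macrophage-like cells and the MHC-II state 23.2% and 31.3%.

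The 10 genes are spread over 7 chromosomes, but Ctsk and Ctss lie next to each other on chromosome 3. In the GRCm38 annotation Ctsk spans chr3:95499256-95509362 and Ctss chr3:95526786-95556403, both on the + strand, with 17423 bases between them. Upstream sequence is shown for this pair because the neighbours had very different levels and orders of classes, and for Ctsd because it has more matches to the E-box CACGTG than any other member. RefSeq (GRCm38.p6) gave promoter sequence for 8 members, from 250 bases before to 50 bases after the start, and both strands were searched. Capitals mark the match. The 100 bases before the start of Ctss (chr3:95526686-95526785, + strand) hold GAAANNGAAA, the pattern of an interferon-stimulated response element, 21 bases before the start. No other member matched, and 3.44% of 32851 promoters did. The same stretch before Ctsk (chr3:95499110-95499209, + strand) has no match to either pattern.
Ctss: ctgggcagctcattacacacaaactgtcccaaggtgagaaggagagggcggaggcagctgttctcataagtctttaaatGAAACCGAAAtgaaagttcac
Ctsk: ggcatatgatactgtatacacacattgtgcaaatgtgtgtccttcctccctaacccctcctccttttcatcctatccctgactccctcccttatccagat

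CACGTG, the core of the lysosomal CLEAR element bound by MiT/TFE factors and a palindrome that reads alike on both strands, was found in 3 of the 8 members and in 7.15% of all promoters. It lay 245 and 98 bases before the start of Ctsd, 236 bases before that of Ctsl and 49 bases before one of the 2 starts listed for Lgmn. The other Lgmn promoter, which holds the start of the annotated gene, has no match. The nearer Ctsd match, the Ctsl match and the Lgmn match lie inside the annotated genes, whose starts are farther upstream than those of RefSeq. The far end of the Ctsd window (chr7:142388047-142388077, - strand, 220 to 250 bases before the start) is shown with its match. These matches describe letters only.
Ctsd: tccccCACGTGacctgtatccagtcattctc

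First, the members were compared between macrophage-like and lymphocyte-like cells. All 10 were over 1.5-fold higher in macrophage-like cells in both libraries, beside 16.2% of all genes tested, and 0 were lower, beside 26.3%. The median log2 fold of the members, over both libraries, was 2.29, against -0.24 for all genes. Legumain had the highest fold, at 8.40-fold (1413 against 168 CPM) and 8.73-fold (1354 against 155 CPM). Cystatin C had the lowest in both libraries, at 1.71-fold and 2.06-fold. The cathepsins between them ranged from 3.09-fold (Ctsk) to 6.30-fold (Ctsl) in the library labelled Irg1+/+ and from 2.53-fold (Ctsd) to 6.45-fold (Ctsl) in the other. The log2 fold of Ctsk in the library labelled Irg1+/+ was 1.63, and 2.08 without the cell of each class with the most Ctsk UMIs. Without all possible doublets it was 2.94. Scaling by TMM moved all genes by 0.16 and 0.15 on the log2 scale and changed none of the 10 calls.

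UMIs from other cells, as free RNA or in doublets, set a floor for such comparisons, which was not measured directly. The complement genes C1qa, C1qb and C1qc, which T and NK cells should lack, had 0.214 to 0.365 of their whole-library CPM in T cell-like and NK cell-like cells. Ctsb stood at 0.385 and 0.405 of its whole-library CPM in T cell-like cells, just above that range. Low T cell-like levels of such genes cannot be told apart from this floor. In cDC1-like and mature DC-like cells the complement genes had shares of 0.251 to 0.355. Ctsl had 0.336 and 0.325 in cDC1-like and 0.307 and 0.269 in mature DC-like cells. Ctsb had 0.380 and 0.350, and 0.348 and 0.337, in the same order. How far free RNA made up these DC-like levels was not tested.

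**Figure D1:**
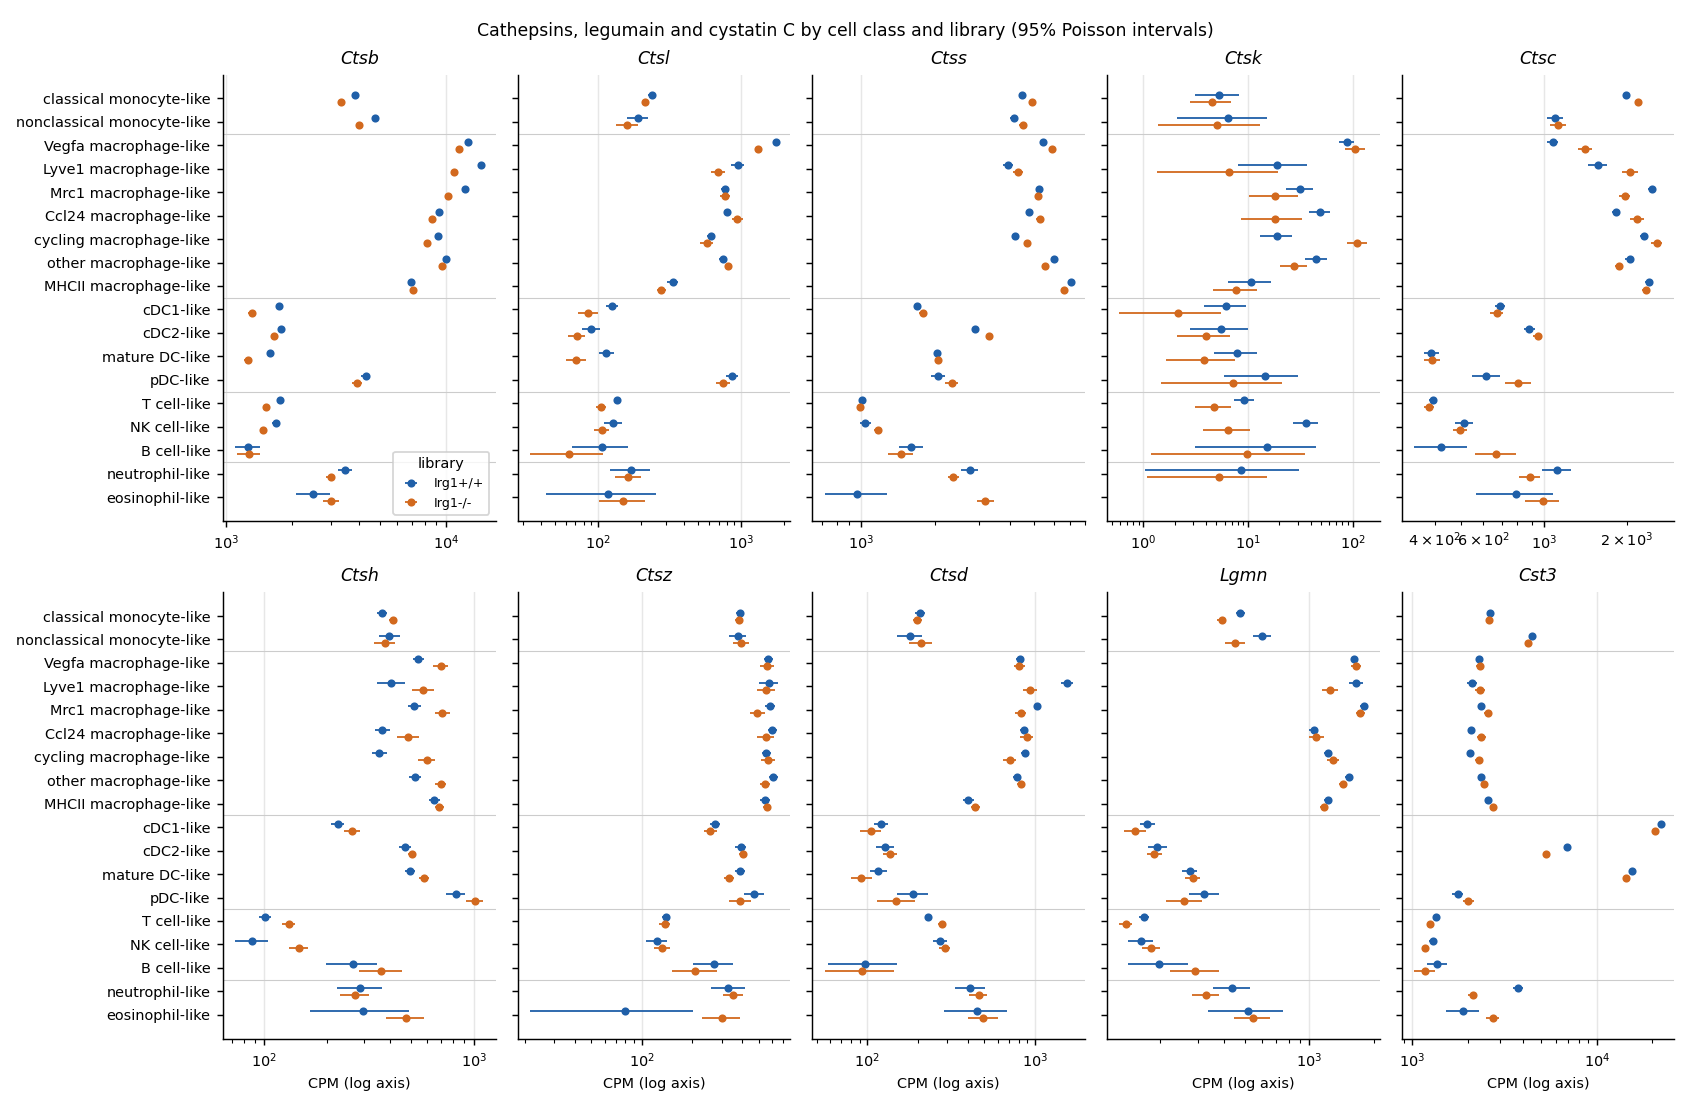
CPM of each member (log axis) in 18 cell classes, 1 panel per gene, with points for the libraries labelled Irg1+/+ and Irg1-/- and bars for 95% Poisson intervals. Cst3 is highest in cDC1-like cells (22444 and 20618 CPM), Ctsh in pDC-like cells (820 and 1010 CPM), and the other members in macrophage-like states.

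Between macrophage-like and monocyte-like cells the members divided. Higher by over 1.5-fold in both libraries were 5 members (14.2% of all genes were): Ctsk, Ctsd, Ctsl, Lgmn and Ctsb. None was lower by that much in both (7.85% of all genes were). Ctsd, the aspartic protease, was at 816 and 701 CPM in macrophage-like cells and at 201 and 200 CPM in monocyte-like cells, a fold of 4.05 and 3.50. Ctsl was at 854 and 676 CPM in macrophage-like and at 232 and 208 CPM in monocyte-like cells. Lgmn and Ctsb differed 2.85-fold and 3.41-fold, and 2.54-fold and 2.62-fold. Ctsc, the activator of granule proteases, was near the same level in both lineages, at 1.08-fold and 1.02-fold, and Ctss differed 1.23-fold and 1.18-fold. Ctsz was just under the threshold, at 577 and 549 against 385 and 383 CPM. Ctsh was 1.33-fold and 1.62-fold higher in macrophage-like cells, over the threshold in 1 library only, and Cst3 was lower there, at 0.772-fold and 0.881-fold. TMM scaling moved all genes by -0.16 and -0.20 on the log2 scale and left the same 5 genes called.

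Ctsb, a carboxydipeptidase as well as an endopeptidase, was the most abundant protease of the set in macrophage-like cells. Its level there was 10186 CPM (106030 UMIs) and 8950 CPM (65493 UMIs). Macrophage-like cells were 13.4% and 12.2% of the cells and held 55.2% and 49.7% of all Ctsb UMIs, 58.5% and 54.5% of Lgmn and 56.2% and 53.2% of Ctsl. They had more UMIs per cell, with medians of 9950 and 9355 against 3693 and 2980.5 in lymphocyte-like cells.

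Ctsb varied less over the macrophage-like states than between lineages. The highest level was in the Lyve1 state in the library labelled Irg1+/+ (14430 CPM) and in the Vegfa state in the other (11465 CPM), and the lowest in the MHC-II state in both (6941 and 7088 CPM), a span of 2.08-fold and 1.62-fold. Outside macrophage-like cells it was at 3854 and 3320 CPM in classical monocyte-like cells, at 4305 and 3944 CPM in pDC-like cells, and between 1257 and 1775 CPM in the 3 DC-like classes. The order of macrophage-like, then monocyte-like and pDC-like, then DC-like and lymphocyte-like cells was the same in both libraries, with no overlap of intervals between macrophage-like states and any other class.

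Ctsl, an endopeptidase, was the cathepsin that differed most among macrophage-like states, Ctsk aside. It was highest in the Vegfa state, at 1760 and 1331 CPM, and lowest in the MHC-II state, at 334 and 279 CPM, a fold of 5.27 and 4.76. The quartiles of single cells met little or not at all: 558 to 2362 CPM with a median of 1261 in the Vegfa state against 58.0 to 440 CPM with a median of 245 in the MHC-II state of the library labelled Irg1+/+, and 347 to 1683 (median 911) against 85.6 to 351 (median 198) in the other. The other states lay between, at 616 to 953 CPM and 578 to 949 CPM. Ctsl is not among the markers of these states.

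Ctss, by contrast, was highest where Ctsl was lowest. Its level was highest in the MHC-II state in both libraries, at 7038 and 6593 CPM, against 5436 and 5936 CPM in the Vegfa state. The lowest state was Lyve1, at 3939 and 4311 CPM. Monocyte-like cells, at 4399 and 4848 CPM, were above that state. The number of Ctss UMIs per Ctsl UMI was therefore 3.09 and 4.46 in the Vegfa state and 21.1 and 23.6 in the MHC-II state. It was 32.2 and 46.2 in cDC2-like cells and 2.36 and 3.08 in pDC-like cells, the highest and the lowest of the 18 classes in both libraries. The Ctsl behind the cDC2-like ratio was 90.1 and 71.3 CPM, against 376 and 263 CPM over all kept cells. This is near the floor given above, and the part of free RNA in that ratio was not tested. The pDC-like cells were lowest under each alternative, whereas cDC2-like cells, the weakest gate, were not highest with every other marker in the library labelled Irg1+/+ (21.2, against 22.1 in nonclassical monocyte-like cells) or with thinning in the other.

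Across the Vegfa and MHC-II states, 4 members were over 1.5-fold higher in the Vegfa state in both libraries (6.11% of all genes): Ctsb, Ctsd, Ctsk and Ctsl. One was lower (7.32% of all genes), Ctsc, at 1075 and 1415 CPM against 2405 and 2340 CPM. Ctsd lost its call with every other marker. Against the Mrc1 state, the MHC-II state was lower for 2 members (2.96% of all genes), Ctsd and Ctsl, and higher for 0 (3.05% of all genes). With the wider gate margin only Ctsl kept that call, and without possible doublets Ctsb and Lgmn were also past the fold. Ctsd was at 400 and 440 CPM in the MHC-II state and at 1033 and 826 CPM in the Mrc1 state. Its level in the Lyve1 state was 1556 and 934 CPM, the highest of all classes in both libraries, from 29 and 42 cells. In the library labelled Irg1-/- its interval there overlapped that of the next class, the Ccl24 state (893 CPM).

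**Figure D2:**
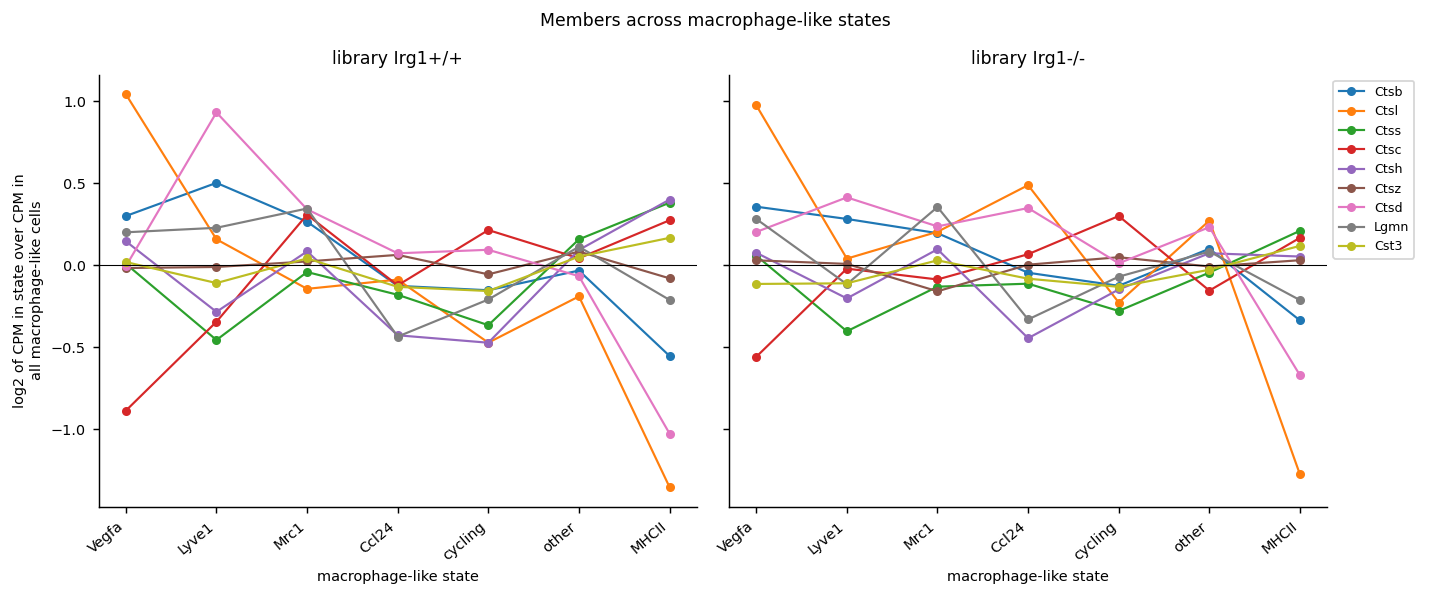
Log2 of the CPM of each member in each macrophage-like state over its CPM in all macrophage-like cells, 1 panel per library, with Ctsk left out for its low counts and lines that only join the points of a gene. Ctsl falls from the Vegfa state to the MHC-II state (5.27-fold and 4.76-fold) while Ctsz stays within 1.12-fold and 1.15-fold over the states.

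Ctsz and Cst3 were the most even members over the macrophage-like states. Lgmn was highest in the Mrc1 state in both libraries (1796 and 1733 CPM) and lowest in the Ccl24 state (1045 and 1077 CPM). The Mrc1 interval overlapped that of the next class, the Lyve1 state (1655 CPM) in the library labelled Irg1+/+ and the Vegfa state (1647 CPM) in the other. Ctsz, a carboxypeptidase also called cathepsin X, spanned 1.12-fold and 1.15-fold over the states, and the Poisson intervals of most neighbouring classes overlapped (16 and 15 of 17 neighbours in its order). Cst3 spanned 1.25-fold and 1.19-fold, and Lgmn 1.72-fold and 1.61-fold.

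Ctsk, the collagen-degrading cathepsin of osteoclasts, was by far the least abundant member. It had 413 and 253 UMIs in macrophage-like cells, at 39.7 and 34.6 CPM, and a UMI in 172 and 88 of them. In the Vegfa state its level was 87.5 and 105 CPM, and 69.4 and 72.3 CPM without the cell with the most Ctsk UMIs in each library. In the MHC-II state it was 10.6 and 7.74 CPM, from 19 and 18 UMIs, and 17.0 and 2.37 CPM with thinning. Some levels rested on 1 cell. In the cycling state of the library labelled Irg1-/- (111 CPM) 61 of 78 UMIs were in 1 cell, and the level without it was 25.5 CPM. In NK cell-like cells of the library labelled Irg1+/+ (36.0 CPM) 47 of 52 UMIs were in 1 cell of 28311 UMIs, and the level without it was 3.53 CPM. The neighbouring gene Ctss was at 967 CPM or more in each of the 18 classes, so that the neighbours differed in level everywhere and also in the order of the classes.

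Next, DC-like cells (cDC1-like, cDC2-like and mature DC-like together) were compared with macrophage-like cells. Cst3 alone was over 1.5-fold higher in DC-like cells in both libraries, at 7.13-fold and 4.75-fold, beside 12.7% of all genes. The other side held 8 members (13.8% of all genes), with Ctsl at 0.133-fold and 0.111-fold (the first a log2 fold of -2.91, and -3.57 without possible doublets), Ctsd at 0.149-fold and 0.165-fold, Lgmn at 0.150-fold and 0.153-fold, and Ctsb at 0.167-fold and 0.162-fold. Ctsh, an aminopeptidase, was the remaining member, at 0.759-fold and 0.704-fold. Without possible doublets Ctsz lost the call, which left 7 members lower in DC-like cells. The median log2 fold of the members was -2.10, against -0.04 for all genes.

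Cystatin C marked the conventional DC-like classes. In cDC1-like cells its level was 22444 and 20618 CPM, in mature DC-like cells 15620 and 14472 CPM, and in cDC2-like cells 6872 and 5329 CPM. The levels fell in this order in both libraries without overlap. The quartiles of single cDC1-like cells were 17317 to 28831 CPM (median 23648) and 14568 to 25754 CPM (median 19709), so that the level was carried by most cells. Cells of the cDC1-like class were 4.50% and 3.23% of the cells and held 36.5% and 25.4% of the Cst3 UMIs. The 3 classes together held 62.3% and 57.4%. The pDC-like cells were not part of this pattern, at 1760 and 2012 CPM, below the macrophage-like level of 2278 and 2508 CPM and above the T cell-like level of 1338 and 1242 CPM.

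Set against its targets, cystatin C was in excess of the summed cysteine proteases (the 7 cysteine cathepsins and legumain) only in DC-like classes among the 18 compared. There were 4.56 and 4.56 Cst3 UMIs per cysteine protease UMI in cDC1-like cells, 2.95 and 2.91 in mature DC-like cells and 1.03 and 0.755 in cDC2-like cells, the last above 1 in the library labelled Irg1+/+ only. In macrophage-like cells the ratio was 0.109 and 0.125, with classical monocyte-like cells at 0.223 and 0.221 and nonclassical monocyte-like cells at 0.387 and 0.385. It compares transcripts, not proteins. Ctsb held 5625 of 15978 and 2412 of 8346 of the cysteine protease UMIs in cDC1-like cells. Ctsb and Ctsl in cDC1-like and mature DC-like cells were near the floor given above, and the part of free RNA in these ratios was not tested. The share of all UMIs taken by the 10 members was similar in cDC1-like (2.75% and 2.52%) and macrophage-like cells (2.40% and 2.32%), with different members behind it.

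**Figure D3:**
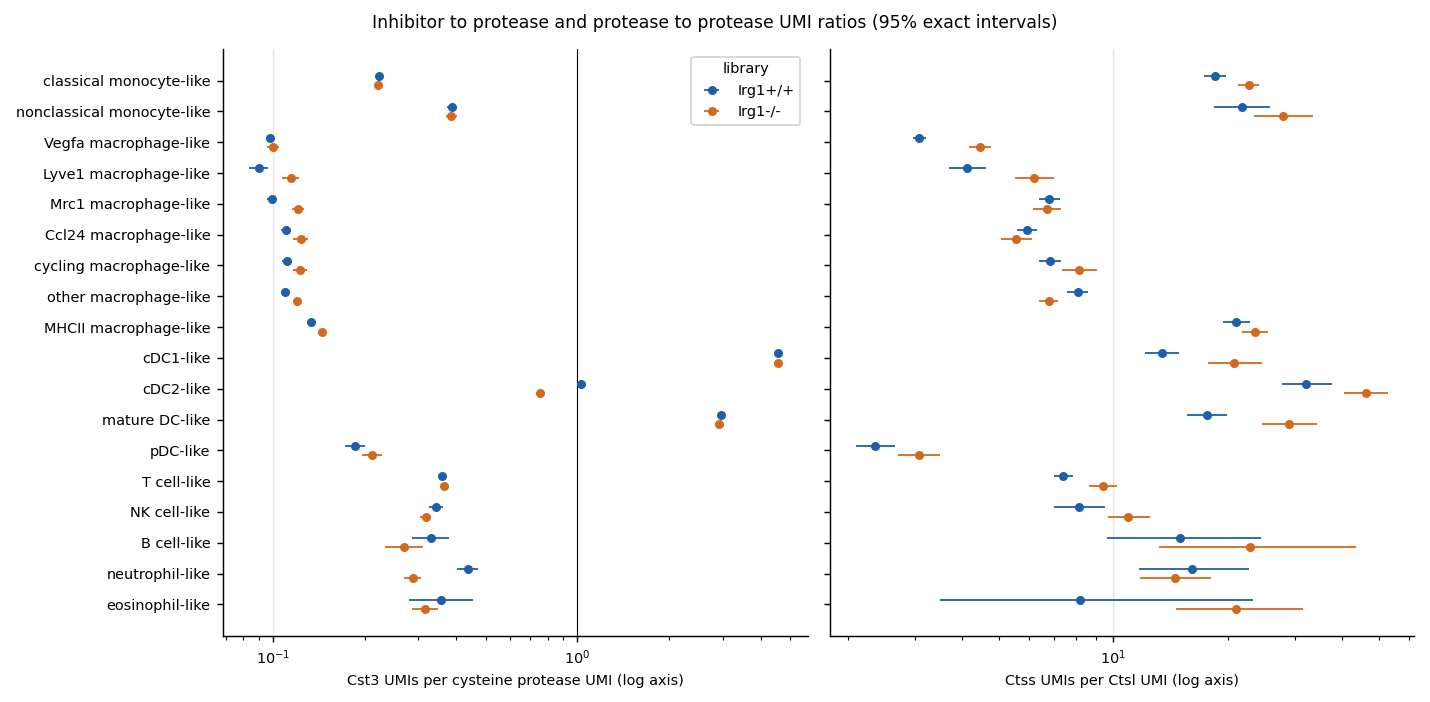
Cst3 UMIs per cysteine protease UMI (left, line at 1) and Ctss UMIs per Ctsl UMI (right) in 18 classes, both on log axes, with a point per library and bars for 95% exact intervals. The left panel has cDC1-like and mature DC-like cells above 1 in both libraries (4.56 and 4.56, and 2.95 and 2.91), and the right panel has pDC-like cells lowest (2.36 and 3.08) and cDC2-like cells highest (32.2 and 46.2).

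Among the DC-like classes themselves, cDC1-like cells had 1 member over 1.5-fold above cDC2-like cells in both libraries (6.29% of all genes), Cst3, at 3.27-fold and 3.87-fold. Lower in cDC1-like cells were 2 (9.59% of all genes), Ctsh and Ctss. Without possible doublets Ctss lost the call, and with the mean of the CPM of each cell Ctsz was also past the fold. Ctss was at 1694 and 1784 CPM in cDC1-like, at 2898 and 3290 CPM in cDC2-like and at 2033 and 2056 CPM in mature DC-like cells. Ctsh was at 224 and 262, at 468 and 508, and at 496 and 577 CPM in the same order. The members differed from one DC-like class to another, and no class was highest for all of them.

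The pDC-like cells carried 2 cathepsins at levels of macrophage-like cells. Ctsh was at 820 CPM (interval 741 to 906) and 1010 CPM (915 to 1111), the highest of the 18 classes in both libraries, against 492 and 661 CPM in macrophage-like cells. Ctsl was at 866 and 757 CPM, against 854 and 676 CPM in macrophage-like and 70.9 to 126 CPM in the conventional DC-like classes. These levels come from 392 and 419, and 414 and 314, UMIs in 69 and 62 cells. After each cell was thinned to 2000 UMIs, a Ctsl UMI was found in 71.2% and 74.6% of pDC-like cells against 17.3% and 12.7% of T cell-like cells. Without thinning the shares were 92.8% and 88.7% against 38.9% and 33.7%. A Ctsh UMI was found in 83.3% and 91.5% of thinned pDC-like cells. Over T cell-like cells, 7 members were higher in pDC-like cells in both libraries (13.6% of all genes) and 0 lower (18.9% of all genes). Without possible doublets Lgmn and Ctsc lost the call, with Lgmn at 150 CPM in pDC-like cells of the library labelled Irg1+/+, in place of 322 CPM, and Ctsd was called lower. Ctsc also lost the call with every other marker and with mitochondrial UMIs under 5%.

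Nonclassical and classical monocyte-like cells differed in 1 member in each direction. Cst3 was higher in nonclassical cells (4.28% of all genes were), at 4476 and 4252 against 2628 and 2611 CPM. The fold was 1.70 and 1.63. TMM scaling moved all genes by -0.15 and -0.12 on the log2 scale. This took Cst3 just under the threshold in the library labelled Irg1-/- only, so the call, which needs both libraries, was lost. The Cst3 call was also lost with every other marker. Ctsc was lower (3.18% of all genes were), at 1097 and 1125 against 1990 and 2189 CPM, a fold of 0.551 and 0.514 that held with TMM scaling. The classical monocyte-like level of Ctsc was at that of macrophage-like cells (1988 and 2084 CPM). Against lymphocyte-like cells, 8 members were higher in monocyte-like cells in both libraries (15.9% of all genes), and 0 lower (35.5% of all genes). DC-like cells were higher than lymphocyte-like cells in 5 members (13.8% of all genes), namely Cst3, Ctsh, Ctsz, Ctss and Ctsc, and lower in 1 (24.6% of all genes), Ctsd. Ctsb was at the same level in both, at 0.977-fold and 0.969-fold. Its T cell-like, cDC1-like and mature DC-like levels were near the floor given above.

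Ctsd in T cell-like and NK cell-like cells stood apart from the rest of the set. Its level was 230 and 278 CPM in T cell-like and 272 and 289 CPM in NK cell-like cells, against 121 and 105 CPM in cDC1-like, 117 and 92.3 CPM in mature DC-like and 96.6 and 92.5 CPM in B cell-like cells. T cell-like cells were thus 1.90-fold and 2.66-fold above cDC1-like cells, where Ctsd was the 1 member higher beside 22.8% of all genes. Over mature DC-like cells they had 1 such member, at 1.97-fold and 3.01-fold, beside 37.0% of all genes. NK cell-like cells were 2.33-fold and 3.13-fold above mature DC-like cells, again as the 1 member, beside 27.6% of all genes. These background shares are large, and the counts of members are below them. In each of the 3 comparisons 5 members were lower in the lymphoid class, beside 11.3%, 14.7% and 16.8% of all genes in the same order. With the mean of the CPM of each cell, Lgmn lost this call between T cell-like and mature DC-like cells.

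C1qa, C1qb and C1qc had overlapping shares in these classes: 0.247 to 0.337 of the whole-library CPM in T cell-like, 0.269 to 0.355 in cDC1-like and 0.251 to 0.334 in mature DC-like cells. For Ctsd the shares were 0.617 and 0.844 in T cell-like and 0.731 and 0.877 in NK cell-like cells, against 0.325 and 0.317 in cDC1-like, 0.314 and 0.280 in mature DC-like and 0.260 and 0.281 in B cell-like cells. After thinning to 2000 UMIs a Ctsd UMI was found in 34.7% and 36.6% of T cell-like, 39.9% and 39.6% of NK cell-like, 19.8% and 15.0% of cDC1-like and 65.6% and 65.4% of macrophage-like cells. Unthinned, the shares were 60.2% and 57.3% in T cell-like (median 4265 and 3817 UMIs) and 54.8% and 50.3% in cDC1-like cells (median 10156 and 8858 UMIs). The T cell-like level without possible doublets was 225 and 254 CPM. With TMM scaling, which moved all genes by -0.22 and -0.17 on the log2 scale, Ctsd kept its call over cDC1-like cells.

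Other lymphocyte-like values were low. NK cell-like and T cell-like cells differed by over 1.5-fold in both libraries in 0 members (9.03% of all genes were higher and 12.9% lower). B cell-like cells (73 and 76) were higher than T cell-like cells in 2 members (13.3% of all genes) and lower in 1 (17.8% of all genes), with Ctsh 2.63-fold and 2.76-fold higher and Ctsd at 0.421-fold and 0.333-fold. The other member higher, Ctsz, was lost with TMM scaling. Ctsd in B cell-like cells rested on 19 and 19 UMIs. With mitochondrial UMIs under 5% it was 49.4 in place of 96.6 CPM in the library labelled Irg1+/+. With thinning it was 41.7 in place of 92.5 CPM in the other. Among the related genes, the lymphocyte cathepsin Ctsw was at 372 and 396 CPM in NK cell-like and 165 and 172 CPM in T cell-like cells, against 25.6 and 32.3 CPM in macrophage-like cells. The inhibitor Cst7 (cystatin F), which acts inside granules, was at 250 and 188 CPM in NK cell-like, 232 and 212 CPM in T cell-like and 26.9 and 22.1 CPM in macrophage-like cells.

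Other lysosomal genes were compared between the same lineages. Over 1.5-fold higher in macrophage-like than in lymphocyte-like cells in both libraries were 17 of 18 glycosidases, lipases and cofactors, 14 of 15 membrane and proton pump genes and 3 of 4 MiT/TFE factors (the regulators of lysosomal genes), with none lower, beside 16.2% of all genes higher. Of the 9 other cathepsins and lysosomal peptidases with at least 100 UMIs, 6 were higher and 1, Ctsw, was lower. Examples are Cd68, a lysosomal glycoprotein of macrophages (1990 and 1760 CPM against 413 and 366 CPM), Grn, the precursor of granulins (2143 and 2106 against 363 and 380 CPM) and Psap, the saposin precursor (6067 and 5463 against 1292 and 1161 CPM). Over monocyte-like cells the counts were smaller, with 8 of 18, 4 of 15 and 1 of 4 higher in macrophage-like cells, beside 14.2% of all genes, and 3 of the 9 peptidases. Lower in macrophage-like cells were 1 of the 18, 0 of the 15, 0 of the 4 and 1 of the 9, beside 7.85% of all genes. Lyz2, lysozyme, was even higher in monocyte-like cells, at 14869 and 14205 against 8059 and 7185 CPM. Between DC-like and macrophage-like cells, 11 of the 18 glycosidases, lipases and cofactors and 10 of the 15 membrane and pump genes were lower in DC-like cells, beside 13.8% of all genes, and 0 higher. The 9 peptidases were mixed, with 4 lower (Ctsa, Ctso, Tpp1 and Dpp7) and 2 higher: Napsa, an aspartic protease, at 212 and 244 against 25.2 and 39.1 CPM, and Prcp, a carboxypeptidase, at 227 and 240 against 127 and 137 CPM. Of the MHC class II peptide loading genes, 5 of 5 were higher in DC-like cells (12.7% of all genes), with Cd74, the invariant chain, at 9279 and 10656 CPM against 4958 and 6496 CPM.

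Among single list genes, Npc2, a sterol carrier, was at 1713 and 1936 CPM in mature DC-like and 1437 and 1509 CPM in macrophage-like cells, and the tetraspanin Cd63 at 1147 and 1196 CPM in mature DC-like cells. Ctsa, the lysosomal carboxypeptidase that protects beta-galactosidase, was at 366 and 317 CPM in macrophage-like and 110 and 114 CPM in DC-like cells. Mitf was at 70.9 and 58.1 CPM in macrophage-like and 16.2 and 17.0 CPM in DC-like cells, and Tfec at 40.3 and 27.9 CPM and 5.76 and 3.74 CPM. These were the 2 of 4 MiT/TFE factors lower by over 1.5-fold in DC-like cells, beside 13.8% of all genes, and 0 were higher. Tfeb and Tfe3 were not called in either direction. The cytosolic inhibitor stefin B (Cstb) did not follow cystatin C: it was at 1227 and 1342 CPM in macrophage-like cells and at 474 and 494 CPM in DC-like cells, and it was the other inhibitor, beside Cst7, that reached 100 UMIs.

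Patterns over classes were compared as Pearson r of log2(CPM + 1) over 36 points, 18 classes in each of 2 libraries. Points of one library share depth and free RNA, and states of one lineage share markers, so r is a description. Ctsb was most like Cd68 (0.963), Cd93 (0.963) and Lgmn (0.949) among 6080 genes, and Lgmn was most like C3ar1 (0.951). Among member pairs Ctsb and Lgmn had the highest r (0.949), followed by Ctsb and Ctsl (0.924). Cst3 had r between -0.42 (with Ctsd) and 0.16 (with Ctsh) with the other members, and its most similar genes were Ncoa7 (0.892), Atox1 (0.888) and Tspan33 (0.886). Ctsk was most like Slc27a1 (0.779), Mmp13 (0.778) and Atp6v0d2 (0.777).

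Finally, the libraries were set side by side within each cell group. Melanocyte markers (Pmel, Mlana and others) differed between the libraries in every class: their summed level was 165 and 41.3 CPM in T cell-like, 139 and 40.9 CPM in classical monocyte-like and 171 and 48.8 CPM in cDC1-like cells, with 104 and 19 melanocyte-like cells in the libraries. These cells, at 17846 and 16047 CPM of the markers, had Ctsb at 2770 and 4111 CPM and Ctsl at 315 and 239 CPM. The part of tumor RNA in the ratios below was not tested. Classical monocyte markers differed the other way: their summed level was higher in the library labelled Irg1-/- in every class but mast cell-like cells, with 2284 and 3098 CPM in T cell-like, 2234 and 3005 CPM in NK cell-like, 1340 and 2682 CPM in cDC1-like, 2622 and 4063 CPM in cDC2-like and 744 and 1298 CPM in mature DC-like cells. In macrophage-like cells it was 1862 and 2545 CPM in the Vegfa state, 3220 and 4102 CPM in the MHC-II state, 1047 and 2391 CPM in the Mrc1 state and 869 and 3690 CPM in the Lyve1 state. The part of these markers in the ratios of any class, and that of the state shares in the macrophage-like ratios, was not tested.

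In macrophage-like cells 0 of 10 members were over 1.5-fold apart, where 6.21% of all genes were, and the median log2 ratio (Irg1-/- over Irg1+/+) of the members was -0.07 against -0.04 for all genes. The members farthest from 0 were Ctsh, with a log2 ratio of 0.43 (0.37 to 0.48; 492 and 661 CPM), and Ctsl, with -0.34 (-0.39 to -0.29; 854 and 676 CPM). Ctsd had a log2 ratio of -0.22 and Ctsb of -0.19, and Cst3 of 0.14. Lgmn, Ctss, Ctsc and Ctsz were within 0.08 of 0. Ctsk, with far fewer UMIs, had a log2 ratio of -0.20 (-0.43 to 0.03).

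In monocyte-like cells, 0 of the 9 members with at least 100 UMIs were called (4.58% of all genes), with Lgmn at a log2 ratio of -0.32 and Ctsb at -0.23. In both pooled lineages several ratios were beyond counting error, with no measure of how far replicate pools would differ.

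In DC-like cells Ctsl was called, at 113 and 74.8 CPM with a log2 ratio of -0.60 (-0.76 to -0.44), where 6.79% of all genes were called. The log2 ratio fell under the threshold with TMM scaling (-0.56), thinning (-0.41), the wider margin (-0.52) and without possible doublets (-0.28). The Ctsl levels of cDC1-like and mature DC-like cells were near the floor given above. Over all kept cells the log2 ratio of Ctsl was -0.51, and the part of free RNA in the DC-like ratio was not tested. Ctsk was also past 1.5-fold but on 50 and 25 UMIs. Cst3 had a log2 ratio of -0.45 over the pooled DC-like cells, at 16246 and 11902 CPM, but -0.12 within cDC1-like, -0.37 within cDC2-like and -0.11 within mature DC-like cells. The make-up of the DC-like cells differed at the same time: cDC1-like cells were 31.4% and 21.2% of them, cDC2-like cells 27.1% and 44.2% and mature DC-like cells 41.5% and 34.6%.

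In lymphocyte-like cells Ctsk was called (4.63% of all genes), with a log2 ratio of -1.25, or -0.81 without the cells with the most Ctsk UMIs. It was under the threshold with thinning (-0.37) and without possible doublets (-0.53). Ctsh was next, with a log2 ratio of 0.47 (102 and 141 CPM).

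Within single classes, members past 1.5-fold on at least 100 UMIs were few. In the macrophage-like states these were Ctsd in the Lyve1 state, with a log2 ratio of -0.74 (-0.92 to -0.56), where 20.6% of all genes were called, and Ctsk (2.56, mostly 1 cell) and Ctsh (0.75, 0.57 to 0.93) in the cycling state, where 12.4% were. In unassigned macrophage-like cells Ctsk was called (-0.71; 5.53% of all genes). The others were Ctsl in mature DC-like (-0.70; 5.35%), Ctsk in T cell-like (-0.96; 3.69%), Ctsh in NK cell-like (0.74; 4.43%), Ctsc in B cell-like (0.66; 6.69%) and Cst3 in neutrophil-like cells (-0.82; 12.9%), and Ctss (1.72) and Ctsh (0.68) in eosinophil-like cells (24.0%). All but Ctss in eosinophil-like cells fell under the threshold in at least 1 alternative. That ratio fell to 0.61, just over the threshold, without possible doublets and to 0.97 with every other marker. The summed macrophage markers in eosinophil-like cells were also higher, at 2191 and 3676 CPM, and their part was not tested. In neutrophil-like cells the summed cDC1 markers were at 480 and 263 CPM, and their part in the Cst3 ratio was not tested. The Cst3 level there in the library labelled Irg1+/+ was 3740 CPM, against 2319 CPM as the mean of cells and 2450 CPM with every other marker.

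**Figure D4:**
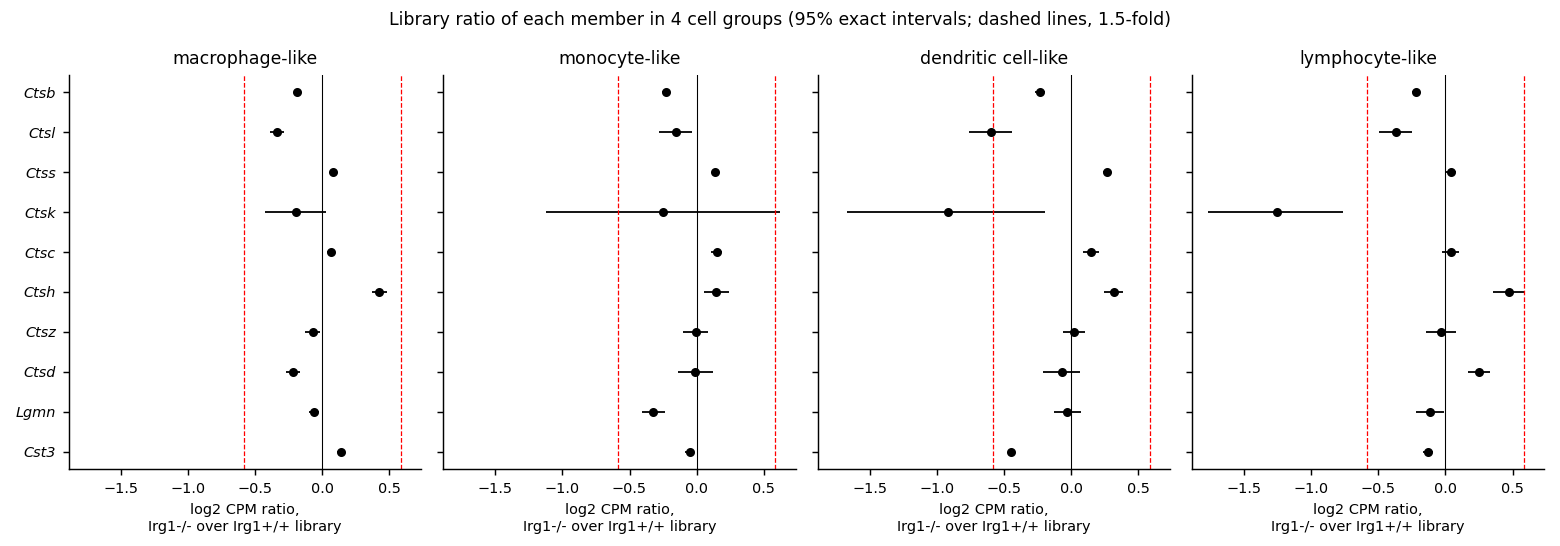
Log2 ratio of CPM (library labelled Irg1-/- over library labelled Irg1+/+) of each member in macrophage-like, monocyte-like, dendritic cell-like and lymphocyte-like cells, with bars for 95% exact intervals of counting error and dashed lines at 1.5-fold. Most members lie within 1.5-fold in each group, with Ctsl (-0.60) at the line in dendritic cell-like cells and Ctsk beyond it in dendritic cell-like and lymphocyte-like cells.

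Some small ratios had one sign in most classes. Ctsh was higher in the library labelled Irg1-/- in 16 of 18 classes, in 13 of them with an interval above 0, and Ctsb was lower in 15, in all 15 with an interval below 0. Ctsl was lower in 14 classes (8 with an interval below 0), while it was higher in the Ccl24 state, with a log2 ratio of 0.24, and in unassigned macrophage-like cells (0.13). Over all kept cells the log2 ratios were 0.37 for Ctsh, -0.29 for Ctsb and -0.51 for Ctsl. Classes of one library share its free RNA and preparation, so they do not count as separate samples.

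Of the lysosomal lists in macrophage-like cells, where 6.21% of all genes were called in either direction, 1 of 9 peptidases was over 1.5-fold higher in the library labelled Irg1-/- (Napsa, at 25.2 and 39.1 CPM) and 2 of 15 membrane and pump genes were lower. These were Atp6v0d2, a proton pump subunit of osteoclasts and some macrophages, at 140 and 60.0 CPM with a log2 ratio of -1.22 (-1.38 to -1.07), and Cd63, a tetraspanin of late endosomes, at 844 and 518 CPM with a log2 ratio of -0.70. No glycosidase, inhibitor, peptide loading gene or MiT/TFE factor was called. Cd74 was at 4958 and 6496 CPM, a log2 ratio of 0.39, and is itself a marker of the MHC-II state, whose share of macrophage-like cells was also larger in that library.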

How the data were processed

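The authors captured cells with BD Rhapsody, trimmed reads with fastp, listed barcodes with UMI-tools and aligned with STAR to GRCm38 (Ensembl release 100). CASAVA 1.8 and Seurat are also named in the submitters' processing notes. The values deposited are UMI counts, not normalized. The members and gene lists were chosen with earlier results of these data known, and the gate thresholds were set with the data in hand.

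A cell needed more than 200 genes and less than 10% of its UMIs from mt- genes, which left out 124 and 102 cells, at a depth of 42105693 and 35307041 UMIs. Marker lists, 22 in all for lineages and states, were scored as the mean z score (limited to 5) of ln(1 + UMIs per 10000). A lineage needed a score of 0.5, a margin of 0.1 and 3 detected markers, and a state 0.25, 0.1 and 2. Classes under 25 cells in a library (melanocyte, mast cell and stroma-like) were left out. UMIs were summed per class and library and given as CPM. A call between libraries means 1.5-fold with at least 100 UMIs over both. Between classes it means 1.5-fold in both libraries, with at least 100 UMIs over both classes in each. With 1 library per genotype no test was made. The interval of a ratio and the 1.5-fold call were tried on simulated Poisson counts of whole libraries. Gates, thinning and TMM scaling were not part of that simulation.

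The genes to name were set by a rule. It took all members, list genes fixed by symbol where they had 100 UMIs, and the list genes with the 2 highest and 2 lowest library ratios in macrophage-like cells. It also took the 3 genes most like each member among those with 50 CPM in a class of each library. All members are shown, but only part of the other genes. Lamp1 is not shown, and the genes most like a member are given for Ctsb, Cst3 and Ctsk, with the first for Lgmn. Of the genes named by the rule, Ctse and Ctsf had 1.06 and 1.23, and 3.36 and 1.78 CPM in macrophage-like cells. Ifi30 was not analysed here. Python 3.11.15, numpy 2.4.6, scipy 1.17.1, pandas 2.3.3 and, for TMM, edgeR 4.0.16 (R 4.3.3) were used. Alternatives were TMM scaling, the mean of the CPM of each cell, thinning to 2000 UMIs, a mitochondrial limit of 5%, no possible doublets, a margin of 0.3, every other marker, and a UMI minimum.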

Additional observations from a re-analysis of the deposited data

Results flagged for a closer look

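Ctsk was marked because its ratio between the libraries had opposite signs in different classes: the log2 ratio (Irg1-/- over Irg1+/+) was 2.56 in cycling macrophage-like cells and -0.96 in T cell-like cells. The difference was not tested. In the cycling class of the library labelled Irg1-/-, 61 of 78 Ctsk UMIs were in 1 cell, and without the cell with the most Ctsk UMIs in each library the log2 ratios were 1.08 and -0.76. In the cycling class the log2 ratio was 0.11 without possible doublets, and in T cell-like cells it was -0.05 with thinning.

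Ctsk was also marked in stroma-like cells, a class too small for the comparisons. Over both libraries its level there was 273 CPM (51 UMIs in 21 cells, Poisson interval 203 to 358), above each of the 18 classes over both libraries. By library it was 566 CPM (41 UMIs in 9 cells) and 87.2 CPM (10 UMIs in 12 cells), so that it rests on the library labelled Irg1+/+.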

How the results depend on the processing

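The 10 members higher in macrophage-like than in lymphocyte-like cells and the 1 member (Cst3) higher in DC-like than in macrophage-like cells stayed at these counts under every alternative run. The 8 members lower in DC-like than in macrophage-like cells were 7 without possible doublets, where Ctsz lost the call. Between the libraries, the count over 1.5-fold in macrophage-like cells was 1 in place of 0 with thinning and without possible doublets. In monocyte-like cells, with no UMI minimum, it was 1 in place of 0 with thinning, by Ctsk, which had 24 and 25 UMIs there before thinning. In DC-like cells, with no UMI minimum, it was 2 (Ctsl and Ctsk), and 1 with TMM scaling, thinning, no possible doublets, the wider margin or at least 100 UMIs (Ctsk in each but the last, where it was Ctsl).

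Of 1548 library ratios of a member in a class under an alternative, 192 had the other sign, spread over all members. In 10 of these the ratio as reported was over 1.5-fold, 1 of Ctsh and the rest of Ctsk. The log2 ratio of Ctsh in eosinophil-like cells went from 0.68 to -0.17 without possible doublets. That of Ctsk went from -0.78 to 0.80 in the Mrc1 state (mean of the CPM of each cell), from -1.50 to 0.54 in the Lyve1 state (every other marker), from -1.43 to 0.42 in the Ccl24 state (thinning), from -0.70 to 0.18 (mitochondrial UMIs under 5%) and 0.17 (wider margin) in neutrophil-like cells, and from -2.47 to 0.89 in NK cell-like cells without possible doublets. In pDC-like cells it went from -1.02 to 0.38 with the mean of cells. Leaving out the cell with the most Ctsk UMIs, an alternative chosen after seeing the data, gave 1.17 in pDC-like and 0.47 in NK cell-like cells. The cause of these shifts was not tested, and the counts behind them are small.

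The class with the highest level was the same for 12 of 20 pairs of gene and library with TMM scaling and for 14 to 20 under the others, and Ctsh, Ctsl, Ctss and Cst3 kept theirs under each. No paired analysis was possible because each genotype has 1 library, and no replicate could be left out.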
